A study of Mus musculus with 12 samples.

Results

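The genes described here are the drug uptake and ABC transporter genes of mouse liver. They were chosen by a rule on symbols, set with earlier results of these data known. It took every gene named Slco or Slc22a with a number, and every gene named Abca to Abcg with a number. Abcb11, Abcg5 and Abcg8 were left out. This gave 88 of the 22609 gene symbols in the count tables. The uptake families held 41 of them (15 Slco and 26 Slc22a genes) and the ABC families held 47. A filter on low counts kept 20 uptake genes (6 Slco, 14 Slc22a) and 39 ABC genes for testing, so 29 of the 88 were measured but not tested. The livers came from 8-week-old male C57BL/6 mice, either wild type for TRIM21, an antibody receptor and ubiquitin ligase, or with the Trim21 gene knocked out. Each mouse had received 1 intraperitoneal injection 48 h before its liver was taken, of diethylnitrosamine (DEN, a liver carcinogen that hepatocytes activate) at 200 mg/kg in PBS, or of PBS alone. Total RNA depleted of ribosomal RNA was sequenced from 12 livers: 3 wild type with PBS, 3 knockout with PBS, 3 wild type with DEN, 2 knockout with DEN, and 1 labelled heterozygote with DEN. The labels do not say which part of Trim21 was removed or whether litters were shared. They also do not state that each library is a separate animal, so the p-values below measure the spread between these libraries.

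Hepatocytes take drugs, hormones, bilirubin and other organic ions from the blood through carriers in the basolateral (blood-facing) membrane. Among these, the Slco genes encode organic anion transporting polypeptides (OATPs), and the Slc22a genes encode organic cation, carnitine and organic anion transporters (OCTs, OCTNs and OATs). ABC proteins bind and hydrolyse ATP. Many pump drugs, conjugates or lipids out of the cell into bile or blood, but others work in mitochondria, peroxisomes and lysosomes, and the Abce and Abcf proteins have no membrane part and act in translation. The ABC genes are therefore called by subfamily here and not taken as efflux pumps as a whole.

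Each library held 17303124 to 23059252 counts assigned to genes, of which 67126 to 145033 fell on the 88 genes. Levels are given as CPM, the counts of a gene per 1000000 counts of its library, after scaling by edgeR's trimmed mean of M-values (TMM). The TMM factors were 0.858 to 0.901 in the PBS libraries and 1.13 to 1.30 in the DEN libraries of the fit, so transporter calls that end or begin when library totals replace TMM are given beside the gene or the counts. Counts of Trim21 were 104, 127 and 93 in PBS wild type, 166, 113 and 225 in DEN wild type, 3, 5 and 5 in PBS knockout, and 3 and 3 in DEN knockout. The library labelled heterozygote had 7 Trim21 counts, near the knockouts and against its label. It is left out of every test. Summed over 9 hepatocyte markers such as Alb and Ttr, the wild-type libraries read 128721 to 144417 CPM with PBS and 96128.5 to 128294 CPM with DEN. The knockout libraries read 116816 to 149964 CPM with PBS and 92840.3 to 100572 CPM with DEN. Each DEN group thus lay below its PBS group. By the tests described below, 3 of the 9 markers were called lower after DEN in each genotype and none higher. Over all genes 26.7% were called lower in wild type and 10.7% in knockout.

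Uptake genes as a group read lower in DEN livers than in PBS livers, and after DEN they read lower in wild type than in knockout, while the PBS groups overlapped. The 41 uptake genes summed to 3880.2, 3209 and 3616 CPM in the PBS wild-type libraries and to 804, 1105 and 583 CPM after DEN. The PBS knockout libraries summed to 4026, 3603 and 3079.6 CPM and the DEN knockout libraries to 2032 and 1991 CPM. No DEN library reached the lowest PBS library, and both DEN knockout libraries lay above all 3 DEN wild-type libraries. The 47 ABC genes summed to 3924, 3161 and 3621 CPM in PBS wild type, 2712, 2805 and 2563 CPM in DEN wild type, 3833, 3601 and 2936 CPM in PBS knockout, and 2979.6 and 2757 CPM in DEN knockout. For the ABC sum the knockout groups overlapped, with 1 DEN library above the lowest PBS library. A sum is set by its most abundant genes and is given as a description. In whole liver, fewer cells of a type and less RNA per cell cannot be told apart.

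**Figure D1:**
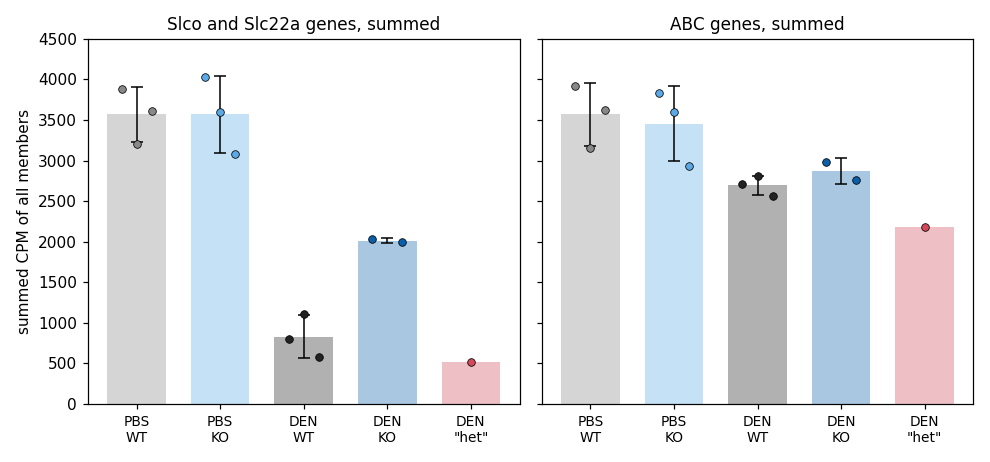
Summed CPM of the 41 Slco and Slc22a genes (left) and the 47 ABC genes (right) in each library. Points are libraries, bars are group means, and error bars are 1 SD (n = 3, or 2 for DEN knockout; the library labelled heterozygote has none). The uptake sum was 3569 ± 338 CPM in PBS wild type and 831 ± 262 CPM in DEN wild type, and 3569.6 ± 474 CPM in PBS knockout and 2012 ± 29.4 CPM in DEN knockout.

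A gene is called here when its adjusted p in edgeR's quasi-likelihood test was under 0.05, adjusted over all 13255 genes tested. DEN against PBS in wild-type liver called 12 of the 20 tested uptake genes lower and 3 higher. Over all genes tested the same comparison called 26.7% lower and 29.2% higher. The median log2 fold change of the 20 uptake genes was -1.12, beside 0.04 for all genes. In knockout liver 7 of the 20 were called lower and none higher, where 10.7% of all genes were called lower and 12.0% higher, and the median was -0.50, beside 0.01 for all genes. All 7 had also been called lower in wild type (58.3% of the wild-type list and 100% of the knockout list). With library totals in place of TMM, which moves the median of all genes up by 0.48 in wild type and 0.39 in knockout, 9 uptake genes were called lower in wild type and 5 in knockout. Under that scaling 78.8% of all called genes were higher in wild type and 89.2% in knockout, against 52.3% and 53.0% with TMM.

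Slco1a1 encodes OATP1A1, a hepatocyte carrier of organic anions and steroid conjugates that is more abundant in male liver. It read 739, 583 and 655 CPM in PBS wild type and 20.4, 16.1 and 3.65 CPM in DEN wild type. The knockout libraries read 431, 652 and 516 CPM with PBS and 287 and 362 CPM with DEN. The 3 DEN wild-type livers were far below all others of the fit, while the DEN knockout livers sat just under their PBS group without overlapping it. DEN left 2.03% of the PBS level in wild type (log2 fold change -5.63 ± 0.57, SE, adjusted p = 3.1e-05) and 60.9% in knockout (-0.72 ± 0.53, adjusted p = 0.37). The interaction (log2 response to DEN in knockout, less the response in wild type) was 4.91 ± 0.71 (adjusted p = 0.011) and was not called (adjusted p = 0.061) without library DENKO_141. Without library DENWT_996, the lowest of the 3, the knockout's own decrease of 0.71 was called (adjusted p = 0.023).

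Slco1b2 encodes OATP1B2, a basolateral carrier of bile acids, bilirubin and many drugs. It had 1470.0, 1075 and 1269.8 CPM in PBS wild type and 204, 257 and 38.2 CPM in DEN wild type, and 1794, 1331 and 969 CPM in PBS knockout and 673 and 759 CPM in DEN knockout. Neither DEN group overlapped its PBS group, and library DENWT_996 was several times below its 2 partners. The wild-type decrease was called (-2.93 ± 0.59, adjusted p = 0.0023), the knockout decrease was not (-0.93 ± 0.63, adjusted p = 0.32), and neither was the interaction (2.0 ± 0.81, adjusted p = 0.16). Without library DENWT_996 the interaction was 1.53 and was called (adjusted p = 0.040), and so was the knockout decrease (adjusted p = 0.016). Under DEN the knockout exceeded the wild type by 2.11 ± 0.61 (adjusted p = 0.037). This call was absent with no filter on low counts (0.072) or with only the groups compared (0.075). That call was lost without library DENKO_141 (0.16) or DENKO_309 (0.12), without library DENWT_307 (0.067) and, at an adjusted p of 0.050 and 0.051, without library PBSWT_542 or PBSWT_545.

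The other tested Slco genes gave unlike values. Slco2b1, an OATP with a broad range of anionic drugs, had 223, 213 and 231 CPM in PBS wild type, 65.2, 59.8 and 40.7 in DEN wild type, 225, 201 and 192 in PBS knockout and 109 and 92.9 in DEN knockout. Its 4 groups lay in separate bands except for the 2 PBS groups, which overlapped. It fell in both genotypes (-2.01 ± 0.17, adjusted p = 8.8e-07 in wild type, and -1.03 ± 0.19, adjusted p = 0.0016 in knockout), with an interaction of 0.98 ± 0.24 (adjusted p = 0.033; 0.18 without library DENKO_141, and 0.050 to 0.070 without any 1 of 5 PBS libraries). Slco3a1, which carries prostaglandins, was low in every library, between 2.02 and 5.46 CPM, and its call in wild type (-0.72, adjusted p = 0.034) was lost without library DENWT_995 (0.10), library DENWT_996 (0.12) or library PBSWT_542 (0.18), and with library totals (-0.24, 0.43). Slco1a4, a near relative of Slco1a1 that carries digoxin, showed no call: 127, 89.02 and 100.2 CPM in PBS wild type, 34.3, 217 and 64.01 in DEN wild type, 83.9, 95.6 and 38.9 in PBS knockout and 162 and 127 in DEN knockout. One DEN wild-type liver was above every PBS liver and the other 2 below every PBS wild-type liver, while both DEN knockout livers were above all 3 PBS knockout livers, with no call (0.99 ± 0.69, adjusted p = 0.35). Without that high library, DENWT_995, Slco1a4 was called lower after DEN in wild type (-1.10, adjusted p = 0.045) and higher in knockout than in wild type under DEN (1.55, adjusted p = 0.035).

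Among the Slc22a genes, Slc22a7 encodes OAT2, a carrier of small organic anions and nucleotides. It read 67.7, 115 and 117 CPM in PBS wild type and 9.79, 4.77 and 3.95 CPM in DEN wild type, against 94.1, 105 and 84.8 CPM and 42.7 and 19.1 CPM in the knockout groups. Both genotypes were lower after DEN without overlap, and the DEN knockout livers stood between the PBS livers and the DEN wild-type livers. The changes were -4.02 ± 0.43 in wild type (adjusted p = 5.2e-05) and -1.62 ± 0.44 in knockout (adjusted p = 0.029). With no filter on low counts, the knockout change (0.061) and the interaction given below (0.073) were not called. The knockout call was lost without library DENKO_309 (0.19) and without library PBSKO_154 (0.056) or PBSKO_544 (0.057). The interaction was 2.40 ± 0.58 (adjusted p = 0.042), lost in 8 of the 11 leave-one-out fits, at up to 0.20.

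Slc22a3 encodes OCT3, a carrier of monoamines and other organic cations, and fell the most of all the tested transporter genes in both genotypes. It had 143, 121 and 183 counts in PBS wild type and 0, 2 and 3 in DEN wild type, and 178, 220 and 93 in PBS knockout and 5 and 4 in DEN knockout. Every DEN liver was near 0, in the knockout as in the wild type. The log2 fold changes were -6.97 ± 0.55 (adjusted p = 8.8e-07) and -5.57 ± 0.57 (adjusted p = 2.6e-05), and the interaction of 1.40 ± 1.03 was not called (adjusted p = 0.42). At so few counts the size of either change is poorly fixed.

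Slc22a28 and Slc22a30 are anion transporter relatives that lie in 1 run of 8 Slc22a genes on chromosome 19, and they fell together. Their coding sequences are identical at 1639 of 1659 aligned bases, and the 250 bases before their start sites at 238 of 244. The promoters are shown because the letters make this likeness plain; capitals mark a match to the C/EBP core TTGCNNAA, counted on either strand, which starts 33 bases before the start of Slc22a28 and 39 before that of Slc22a30. They are RefSeq sequences of build GRCm38.p6, minus strand, 5′ to 3′, from chr19:8131983-8132232 and chr19:8405106-8405355.
Slc22a28: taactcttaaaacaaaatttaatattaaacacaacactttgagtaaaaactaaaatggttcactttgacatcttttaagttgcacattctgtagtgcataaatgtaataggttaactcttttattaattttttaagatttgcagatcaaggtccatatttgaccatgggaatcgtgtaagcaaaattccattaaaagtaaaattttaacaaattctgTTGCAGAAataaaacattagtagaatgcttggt
Slc22a30: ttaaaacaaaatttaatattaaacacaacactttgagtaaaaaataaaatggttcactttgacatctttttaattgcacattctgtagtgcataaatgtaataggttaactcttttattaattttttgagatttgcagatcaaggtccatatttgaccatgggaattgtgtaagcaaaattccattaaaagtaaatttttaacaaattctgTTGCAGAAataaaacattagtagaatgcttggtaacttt
That core occurs in 9.56% of all 32851 RefSeq promoter windows and in 8 of the 81 windows found for 70 of the 88 genes.

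Slc22a30 had 132, 130.4 and 136.33 CPM in PBS wild type, 17.9, 9.49 and 5.59 in DEN wild type, 122, 153.69 and 177 in PBS knockout and 73.1 and 51.1 in DEN knockout. Slc22a28 had 175, 256 and 180 counts in PBS wild type, 6, 3 and 1 in DEN wild type, 172, 270 and 255 in PBS knockout and 98 and 35 in DEN knockout. For both genes the DEN knockout livers stood between the PBS livers and the DEN wild-type livers, and no 2 of these 3 bands overlapped. Slc22a28 changed by -6.42 ± 0.45 in wild type (adjusted p = 2.9e-07) and -2.24 ± 0.36 in knockout (adjusted p = 0.0008), with an interaction of 4.18 ± 0.60 (adjusted p = 0.0068) that was called in every one of the 11 fits that left out 1 library. For Slc22a30 the values were -3.60 ± 0.37 (adjusted p = 2.5e-05), -1.28 ± 0.38 (adjusted p = 0.038; lost in 8 of the 11 fits, up to 0.26 without library DENKO_309, and with library totals at 0.063) and an interaction of 2.32 ± 0.50 (adjusted p = 0.031; lost in 5 of the 11, up to 0.17 without library DENKO_141). The Slc22a30 call in knockout was lost with no filter on low counts too (0.074). With sequences so alike, a read may match both genes. How many did was not tested, and their separate values are uncertain.

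The remaining Slc22a genes called lower in wild type changed by less. Slc22a23, an orphan member, fell in both genotypes (-1.17, adjusted p = 0.00013, and -0.64, adjusted p = 0.038), the knockout call being lost without library DENKO_309 (0.22), library DENKO_141 (0.11), library PBSKO_154 (0.13) or library PBSWT_545 (0.050), and with library totals (-0.25, 0.31). With only the groups compared, the Slc22a23 call in knockout was lost too (0.085). Slc22a18, an imprinted gene, read 188, 194 and 179 CPM in PBS wild type and 109.6, 167 and 86.2 CPM in DEN wild type. Its call (-0.63, adjusted p = 0.025) was lost without any 1 of 4 wild-type libraries (DENWT_307, DENWT_996, PBSWT_541 and PBSWT_542, at 0.055 to 0.10). Library totals ended it too (-0.15, 0.51). Slc22a4, the ergothioneine carrier OCTN1, was called in wild type at -1.05 (adjusted p = 0.033). It lost that call without library DENWT_307 (0.11), library DENWT_996 (0.058) or library PBSWT_542 (0.16), and with library totals (-0.56, 0.23). In knockout Slc22a4 read -1.10 without overlap but was not called (adjusted p = 0.092). DESeq2 (0.046) and the fit without library PBSKO_549 (0.018) did call that decrease. Its interaction was -0.04 (adjusted p = 0.98). Slc22a15, Slc22a17, Slc22a26 and Slc22a27 were not called in any comparison. Slc22a26 and Slc22a27, which lie beside Slc22a28, read 1.87 and 1.75 CPM in library PBSKO_154 and at most 0.882 and 0.652 CPM elsewhere.

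Of the uptake genes, 3 were called higher after DEN in wild type, and none in knockout. Slc22a5 encodes OCTN2, which brings carnitine into cells. It read 28.2, 18.1 and 21.04 CPM in PBS wild type, 67.7, 69.7 and 90.5 in DEN wild type, 28.9, 21.4 and 19.5 in PBS knockout and 28.00 and 37.96 in DEN knockout. The 3 DEN wild-type livers were above every other liver of the fit, while the DEN knockout livers overlapped the PBS knockout livers. It rose by 1.76 ± 0.20 in wild type (adjusted p = 1.5e-05) and read 0.51 ± 0.22 in knockout, not called (adjusted p = 0.12), though library totals called it (0.90, adjusted p = 0.0095). This gave the only negative interaction called among the 59 tested transporter genes: -1.26 ± 0.30 (adjusted p = 0.032). Leaving out library DENKO_141 (0.18), library DENWT_996 (0.076), library PBSKO_154 (0.062) or library PBSWT_542 (0.074) or PBSWT_545 (0.071) ended that interaction call.

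Slc22a21 and Slc22a4 lie next to Slc22a5 on chromosome 11 and moved differently from each other. Slc22a21, the carnitine transporter OCTN3, had 11, 17 and 1 counts in PBS wild type and 30, 27 and 68 in DEN wild type (1.52, adjusted p = 0.019; 0.099 without library DENWT_996). Its coding sequence is 90.5% identical to that of Slc22a5, so some of its few reads may belong there. Slco2a1, the prostaglandin transporter, read 72.99, 63.8 and 71.7 CPM and 93.7, 103 and 114 CPM in the wild-type groups, which did not overlap (0.57, adjusted p = 0.035). Its call was lost without any 1 of 5 of the 6 wild-type libraries (DENWT_995, DENWT_996, PBSWT_541, PBSWT_542 and PBSWT_545, at 0.060 to 0.11). Without library DENWT_996 only 1 uptake gene was called higher in wild type.

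**Figure D2:**
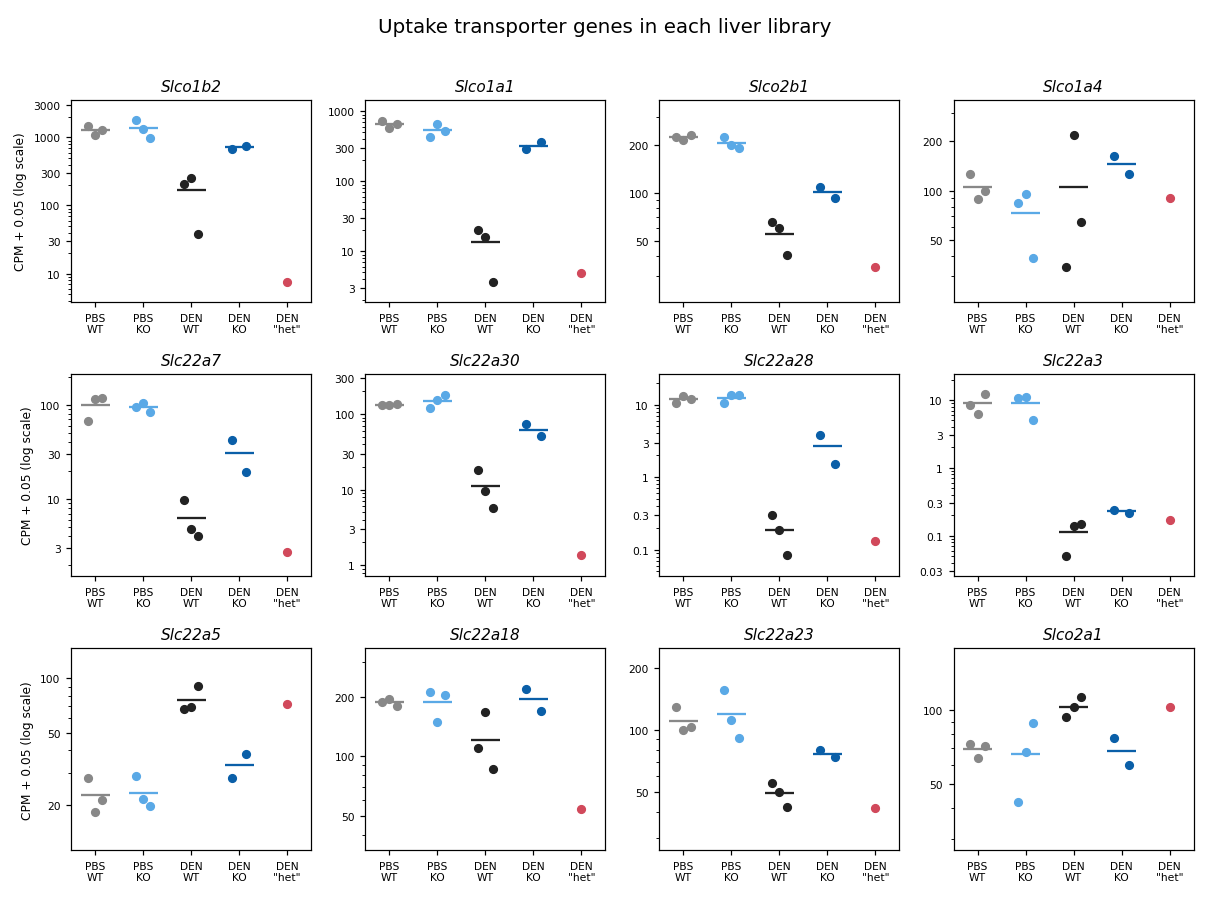
CPM plus 0.05 (log scale) of 12 uptake genes in each library; points are libraries and lines are group means. "WT" is wild type, "KO" is knockout and "het" is the library labelled heterozygote. For Slco1a1, Slc22a7, Slc22a28 and Slc22a30 the 2 DEN knockout livers lie between the PBS livers and the 3 DEN wild-type livers, for Slc22a3 all DEN livers lie near 0, and Slc22a5 is high in the 3 DEN wild-type livers and the library labelled heterozygote.

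The uptake genes were also compared between genotypes under DEN, where 8 of 20 were called higher in knockout and 1 lower (Slc22a5). Over all genes 12.2% were called higher and 9.85% lower, and the medians were 0.79 for the uptake genes and 0.01 for all genes. They included Slco1a1 (4.60), Slc22a28 (4.26), Slc22a30 (2.50), Slc22a7 (2.33), Slco1b2 (2.11), Slco2b1 (0.87) and Slc22a23 (0.64). This comparison shares its DEN libraries with the DEN responses above and adds no separate evidence. The interaction called 6 uptake genes higher and 1 lower, against 4.07% and 2.50% of all genes, with medians of 0.95 and 0.00. Both counts lean on library DENKO_141: without it 3 uptake genes were called higher and none lower in the genotype comparison, and 1 higher (Slc22a28) and none lower in the interaction. The interaction's 6 became 2 or 3 without library PBSKO_154 or PBSKO_544 or any PBS wild-type library. Library DENKO_309 decides part of the knockout's own response, where its loss takes the uptake genes called lower from 7 to 4.

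Markers of the pericentral zone, the hepatocytes around the central vein, moved alongside the uptake genes. The 12 pericentral markers summed to 17992 to 18828 CPM in PBS wild type, 17229.6 to 24295 CPM in PBS knockout, 543 to 2092 CPM in DEN wild type and 3164 to 3875 CPM in DEN knockout. All 12 fell in wild type and 10 in knockout, 7 were higher in knockout than wild type under DEN, and 6 had a positive interaction. Over all genes 26.7% were called lower and 29.2% higher in wild type, and 10.7% and 12.0% in knockout. Under DEN 12.2% of all genes were called higher in knockout, and 4.07% had a positive interaction. Of 10 periportal markers, 4 were called higher and 5 lower in wild type, and 1 higher and 2 lower in knockout. Of 10 genes known to be more abundant in male liver, 8 fell in wild type and 9 in knockout. The part of any of these in the transporter results was not tested.

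Among the ABC genes, DEN called 15 of 39 lower and 7 higher in wild type, with a median log2 fold change of -0.33, and 6 lower and 6 higher in knockout, with a median of -0.01. Over all genes the shares were 26.7% lower and 29.2% higher in wild type (median 0.04), and 10.7% and 12.0% in knockout (median 0.01), so the knockout counts lie near those of all genes. The balance in wild type turns on the scaling: with library totals in place of TMM, 8 ABC genes were called lower and 15 higher in wild type, and 3 lower and 13 higher in knockout. Calls that began under that scaling, all higher, included Abca6, Abcb4, Abcc1, Abcc9, Abcd2, Abcf1 and Abcf3 in wild type. In knockout they included Abca8b, Abcb1a, Abcc1, Abcc2, Abcc10, Abcf1 and Abcg1. Of the genes called higher, 5 were shared by the genotypes (71.4% of the wild-type list and 83.3% of the knockout list). Of the genes called lower, 5 were shared (33.3% and 83.3%). Knockout calls with no wild-type call were Abcd2 (higher) and Abcg2 (lower). Without library DENKO_309 no ABC gene was called lower in knockout, and without library PBSKO_549 there were 10.

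Abcb1b is 1 of the 2 mouse genes for P-glycoprotein, the pump that removes many drugs across the plasma membrane, and it rose in every DEN liver. It read 2.48, 3.07 and 3.12 CPM in PBS wild type, 19.8, 27.7 and 18.7 in DEN wild type, 2.78, 3.43 and 2.02 in PBS knockout and 29.3 and 28.5 in DEN knockout. All 5 DEN livers were several times above all 6 PBS livers, with the knockouts at the top. The log2 fold changes were 2.93 ± 0.21 (adjusted p = 3e-07) and 3.39 ± 0.23 (adjusted p = 4.4e-07), and the interaction was 0.47 ± 0.31 (adjusted p = 0.36).

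Abcb1a, the other P-glycoprotein gene and its neighbour on chromosome 5, had 2.13, 2.36 and 4.58 CPM in PBS wild type, 2.62, 3.28 and 2.98 in DEN wild type, 2.05, 2.19 and 0.639 in PBS knockout and 3.60 and 2.57 in DEN knockout. Its wild-type groups overlapped, while both DEN knockout livers read above all 3 PBS knockout livers. It was not called in wild type (-0.02 ± 0.38, adjusted p = 0.97) or knockout (0.93 ± 0.43, adjusted p = 0.14). The coding sequences of the pair are 88.2% identical, but the 250 bases before their start sites match at 133 of 214 aligned bases. These promoters are shown because, with TMM, only Abcb1b of the neighbouring pair was called. The difference between their responses was not tested. Capitals mark the match to CAAAGNNCA (HNF4) in Abcb1a, from 179 bases before the start, and to TTGCNNAA (C/EBP) on the opposite strand in Abcb1b, from 114 bases before it. Both are RefSeq sequences of GRCm38.p6, plus strand, 5′ to 3′, from chr5:8566841-8567090 and chr5:8797897-8798146.
Abcb1a: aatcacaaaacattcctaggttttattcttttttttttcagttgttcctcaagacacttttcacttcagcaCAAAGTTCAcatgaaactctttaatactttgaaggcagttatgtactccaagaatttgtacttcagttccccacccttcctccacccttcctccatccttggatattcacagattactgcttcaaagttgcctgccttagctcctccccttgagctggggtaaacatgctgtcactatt
Abcb1b: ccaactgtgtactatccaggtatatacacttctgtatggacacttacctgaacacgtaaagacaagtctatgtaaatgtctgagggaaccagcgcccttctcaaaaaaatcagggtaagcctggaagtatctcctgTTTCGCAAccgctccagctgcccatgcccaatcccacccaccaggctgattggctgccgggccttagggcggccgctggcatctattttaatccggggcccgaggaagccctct
HNF4's letters occur in 5.49% of all promoter windows and in 3 of the 81 windows of these genes. The antioxidant response element core TGACNNNGC occurs in 10.2% of all windows and 9 of the 81, and the AP-1 site TGANTCA in 6.75% and 1 of the 81, neither of them in the 4 promoters printed here. A match describes letters only.

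Abcb4, Abcc2 and Abcg2, pumps of the canalicular membrane, which faces bile, gave few calls. The bile salt pump Abcb11 is outside the chosen genes and is given with the scaffold genes below. Abcb4, which moves phosphatidylcholine into bile, read 378, 241 and 279 CPM in PBS wild type and 327, 328 and 309.11 in DEN wild type, groups that overlapped (0.10 ± 0.17, adjusted p = 0.64; 0.09 ± 0.19 in knockout, adjusted p = 0.77). Abcc2 (MRP2), which exports conjugated bilirubin and glutathione conjugates, read 438, 311 and 389 CPM and 343, 394 and 241 CPM in wild type, and 409, 385 and 202 CPM and 502 and 455 CPM in knockout. The wild-type groups overlapped and the DEN knockout livers were above all other livers of the fit, yet neither response was called (-0.22 ± 0.25, adjusted p = 0.49, and 0.53 ± 0.28, adjusted p = 0.2). Abcg2, the breast cancer resistance protein, read 115, 141.26 and 175 CPM and 107, 125 and 112 CPM in wild type (-0.33 ± 0.15, adjusted p = 0.075; -0.46 and 0.016 without library PBSWT_541). In knockout it fell from 145, 161 and 140.62 CPM to 94.3 and 89.6 CPM (-0.70 ± 0.17, adjusted p = 0.01; 0.092 without library DENKO_309; -0.31 and 0.17 with library totals). The difference between these 2 responses was -0.37 ± 0.22 (adjusted p = 0.32).

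On the basolateral side, Abcc3 (MRP3), which returns glucuronides to blood, read 393, 274 and 325 CPM in PBS wild type, 174, 209.6 and 147 in DEN wild type, 389, 310.2 and 295 in PBS knockout and 241 and 247 in DEN knockout. Both DEN groups were below their PBS groups, the wild type further so. It fell in wild type (-0.90 ± 0.18, adjusted p = 0.00073), was not called in knockout (-0.44 ± 0.20, adjusted p = 0.12), and had an interaction of 0.46 ± 0.26 (adjusted p = 0.29). Abcc4 and Abcc1, which also export conjugates across this membrane, were low, at 1.004 to 2.46 and 0.945 to 4.22 CPM over the 12 libraries, and were not called in any comparison. Abcc1 did read above its PBS group in both DEN knockout livers (1.81, 1.84 and 2.50 against 4.22 and 3.29 CPM; 0.87, adjusted p = 0.079).

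Abcc6 is a hepatocyte protein through which ATP leaves the cell, and its loss causes tissue mineralization. It read 271, 227 and 233 CPM in PBS wild type, 54.2, 50.6 and 36.6 in DEN wild type, 246, 228 and 206 in PBS knockout and 146 and 122 in DEN knockout. The DEN knockout livers formed a band of their own between the PBS livers and the DEN wild-type livers. DEN left 19.4% of the PBS level in wild type (-2.37 ± 0.17, adjusted p = 2.2e-07) and 59.1% in knockout (-0.76 ± 0.18, adjusted p = 0.0088; 0.12 without library DENKO_309; -0.37 and 0.080 with library totals). The interaction was 1.61 ± 0.23 (adjusted p = 0.0068), and 0.052 without library DENKO_141. Of the other Abcc genes, the rare Abcc12 fell in wild type (10, 11 and 10 counts with PBS and 2, 1 and 2 with DEN; adjusted p = 0.0022), and Abcc9 and Abcc10 were not called in any comparison.

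The Abca genes, most of which move lipids, went in opposite directions within 1 run of 5 neighbours on chromosome 11. In the order of the genes, the wild-type log2 fold changes were -0.88 for Abca8b (adjusted p = 0.0044; -0.41 and 0.085 with library totals), -4.24 for Abca8a (8e-06), -0.43 for Abca9 (0.3), 0.49 for Abca6 (0.098) and 1.81 for Abca5 (2.4e-05). Abca8a read 124, 95.98 and 132 CPM in PBS wild type, 9.88, 5.40 and 3.42 in DEN wild type, 83.4, 107 and 128 in PBS knockout and 40.9 and 28.4 in DEN knockout. As with Slc22a30, the DEN knockout livers were below all PBS livers and above all DEN wild-type livers. It fell in knockout too (-1.61 ± 0.37, adjusted p = 0.012; 0.13 without library DENKO_309), and the interaction was 2.63 ± 0.48 (adjusted p = 0.021; 0.13 without library DENKO_141).

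Abca8b had 49.01, 29.2 and 33.1 CPM in PBS wild type, 25.04, 19.5 and 16.1 in DEN wild type, 40.2, 29.1 and 32.04 in PBS knockout and 49.01 and 37.5 in DEN knockout. Of the 4 groups, only the DEN wild-type livers were apart and low. Its knockout response was not called (0.36 ± 0.24, adjusted p = 0.3), and its interaction of 1.24 ± 0.32 (adjusted p = 0.041) was lost in 9 of the 11 leave-one-out fits, at up to 0.21. Abca5, a lysosomal protein, rose from 5.37, 5.28 and 5.64 to 17.4, 21.1 and 18.8 CPM in wild type and from 8.03, 6.81 and 3.89 to 11.5 and 15.9 CPM in knockout. No DEN liver overlapped a PBS liver, but the knockout call (1.14 ± 0.24, adjusted p = 0.0049) was lost without library DENKO_309 (0.086).

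Other Abca genes showed smaller or rarer signals. Abca1, which loads cholesterol and phospholipid onto apolipoprotein A-I, was called lower in wild type (-0.39 ± 0.12, adjusted p = 0.016). That call was lost without library PBSWT_545 (0.068), and with library totals in place of TMM the sign turned (0.09, adjusted p = 0.56). In knockout Abca1 read -0.36 ± 0.14 without overlap but was not called (adjusted p = 0.079). DESeq2 (0.039) and the fit without library PBSKO_549 (0.046) did call that decrease. Its interaction was 0.03 (adjusted p = 0.94). Abca2 and Abca3, lipid transporters of lysosomes and related organelles, fell in wild type (-1.15, adjusted p = 7.7e-05, and -1.53, adjusted p = 0.00021). In knockout Abca2 was called at -0.74 (adjusted p = 0.012; 0.17 without library DENKO_309; -0.35 and 0.14 with library totals) and Abca3 was not (-0.79, adjusted p = 0.051). DESeq2 (0.017), limma-voom (0.035), RLE size factors (0.049), the heterozygote as a group of its own (0.049) and 5 of the 11 leave-one-out fits (0.017 to 0.049) did call Abca3. Exons of Abca3 overlap a gene on the opposite strand, D330041H03Rik, and the strand setting of the counting is not given. Abca7, a phospholipid transporter, rose in both genotypes (0.81, adjusted p = 0.00045, and 0.92, adjusted p = 0.0014). Abca17 had no count in any of the 6 PBS libraries, 11, 26 and 8 counts in DEN wild type and 29 and 12 in DEN knockout. Against a floor of 3 counts over the PBS group this is at least 10.1-fold higher in wild type (45 counts in all) and at least 15.2-fold higher in knockout (41 counts), and both were called (adjusted p = 0.0045 and 0.0085).

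Several Abcb genes of mitochondria fell in wild type. Abcb10, which acts in heme synthesis of the inner membrane, read 58.5, 58.1 and 60.4 CPM in PBS wild type, 20.6, 17.2 and 15.3 in DEN wild type, 73.4, 67.95 and 50.8 in PBS knockout and 38.8 and 28.00 in DEN knockout. Both genotypes dropped without overlap, and the DEN groups did not overlap each other. Abcb10 changed by -1.74 ± 0.17 in wild type (adjusted p = 3e-06) and -0.94 ± 0.19 in knockout (adjusted p = 0.003; 0.063 without library DENKO_309). Its interaction, 0.80 ± 0.24, was not called (adjusted p = 0.065), but DESeq2 called it (0.043), as did the fits without library DENKO_309 (0.045) or library DENWT_307 (0.048). Abcb6, a porphyrin transporter, and Abcb8 fell in wild type by -0.91 and -0.77 (adjusted p = 0.00018 and 0.0003). Neither was called in knockout (-0.45 and -0.31), and neither had a called interaction. With library totals in place of TMM, Abcb8 (0.071) lost the wild-type call. Abcb9, a lysosomal peptide transporter, was not called in any comparison.

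Peroxisomal and lysosomal Abcd genes split. Abcd3, a peroxisomal importer of fatty acyl-CoAs and the most abundant ABC gene, read 951, 813 and 925 CPM in PBS wild type, 588, 638 and 647 in DEN wild type, 958, 947 and 705 in PBS knockout and 515 and 443 in DEN knockout. All DEN livers were below all PBS livers, with the knockouts lowest. It fell by -0.52 in wild type (adjusted p = 0.013; 0.86 with library totals in place of TMM) and -0.86 in knockout (adjusted p = 0.0045; 0.068 without library DENKO_309).

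Abcd4, which moves cobalamin out of lysosomes, rose from 18.01, 15.4 and 17.1 to 25.7, 40.6 and 29.8 CPM in wild type (0.93 ± 0.19, adjusted p = 0.0013) and from 13.6, 19.3 and 14.96 to 35.6 and 51.3 CPM in knockout (1.44 ± 0.21, adjusted p = 0.00042). The ranges with and without DEN were apart in both genotypes. Abcd2, which also imports acyl-CoAs into peroxisomes, was called in knockout alone (5.56, 4.92 and 3.67 CPM with PBS and 30.6 and 17.7 with DEN; 2.36 ± 0.60, adjusted p = 0.022). That call was lost without either DEN library (0.12 without DENKO_141, 0.054 without DENKO_309) or any PBS knockout library (0.052 to 0.067). In wild type Abcd2 read 16.9, 4.92 and 5.64 CPM with PBS and 28.7, 12.9 and 10.5 with DEN. Library PBSWT_541 was far above its partners, and without it Abcd2 was called higher in wild type too (1.72, adjusted p = 0.011).

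Of the ABC proteins that act in translation, Abcf2 read 41.04, 35.2 and 39.96 CPM in PBS wild type, 76.3, 57.7 and 105 in DEN wild type, 42.1, 37.8 and 34.8 in PBS knockout and 42.1 and 42.6 in DEN knockout. Within the fit the DEN wild-type livers were above all others, and the library labelled heterozygote read 109 CPM, the highest of the 12. It rose in wild type (1.04 ± 0.18, adjusted p = 0.00028), not in knockout (0.15 ± 0.20, adjusted p = 0.63), and was lower in knockout than wild type under DEN (-0.91 ± 0.20, adjusted p = 0.0085; 0.097 without library DENKO_141). The interaction of -0.89 ± 0.27 was not called (adjusted p = 0.061), though DESeq2 (0.032) and the fit without library DENWT_995 (0.014) called it. Abce1, which splits ribosomes after termination, was called higher in wild type (0.44 ± 0.14, adjusted p = 0.018), but not without library DENWT_996 (0.083) or library PBSWT_541 (0.075). Abcf1 and Abcf3 were not called in any comparison. In the Abcg subfamily, Abcg3 was called lower in wild type (-1.25, adjusted p = 0.027) and lost the call without library DENWT_995 (0.067) or DENWT_996 (0.11) or library PBSWT_542 (0.12) or PBSWT_545 (0.072), and with library totals (-0.78, 0.12).

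**Figure D3:**
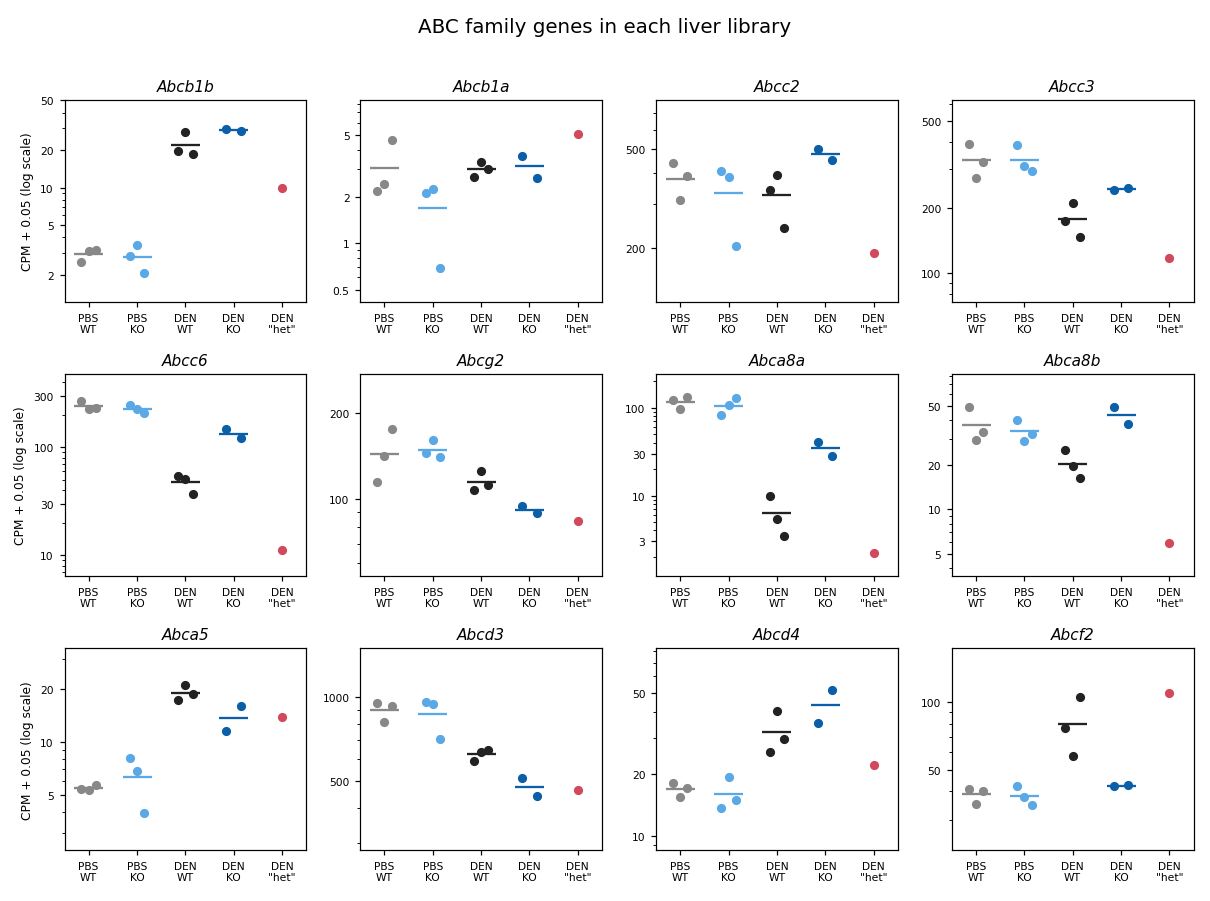
CPM plus 0.05 (log scale) of 12 ABC genes in each library; points are libraries and lines are group means, with groups named as for the uptake genes. Abcb1b is high in all 5 DEN livers of the fit, Abcc6 and Abca8a are lowest in DEN wild type among the 4 groups, and Abcf2 is high in the 3 DEN wild-type livers and the library labelled heterozygote.

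Under DEN, 8 ABC genes were called higher in knockout than in wild type and 1 lower (Abcf2), with a median of 0.36. Over all genes 12.2% were called higher and 9.85% lower, with a median of 0.01. They were Abca8a (2.48), Abcc6 (1.51), Abca8b (1.10), Abcc5 (1.0), Abcb10 (0.92), Abcg1 (0.91), Abca2 (0.56) and Abcb6 (0.49). Abcc5, an exporter of cyclic nucleotides, and Abcg1, which moves cholesterol, had no called DEN response in either genotype. Without library DENKO_141 the count was 2 (Abca8a and Abcc6) and none lower, and without library DENWT_996 it was 4. With library totals Abca2 (0.075), Abcb6 (0.075) and Abcg1 (0.053) lost the call, and Abca2 lost it in limma-voom too (0.053). Of the 11 leave-one-out fits, 9 ended the call for Abcb6, 6 for Abca2, 5 for Abcg1 and 3 for Abcc5. The interaction called 3 ABC genes (Abca8a, Abcc6 and Abca8b), all positive, with a median of 0.41, beside 4.07% of all genes positive and a median of 0.00. Without library DENKO_141 it called none.

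**Figure D4:**
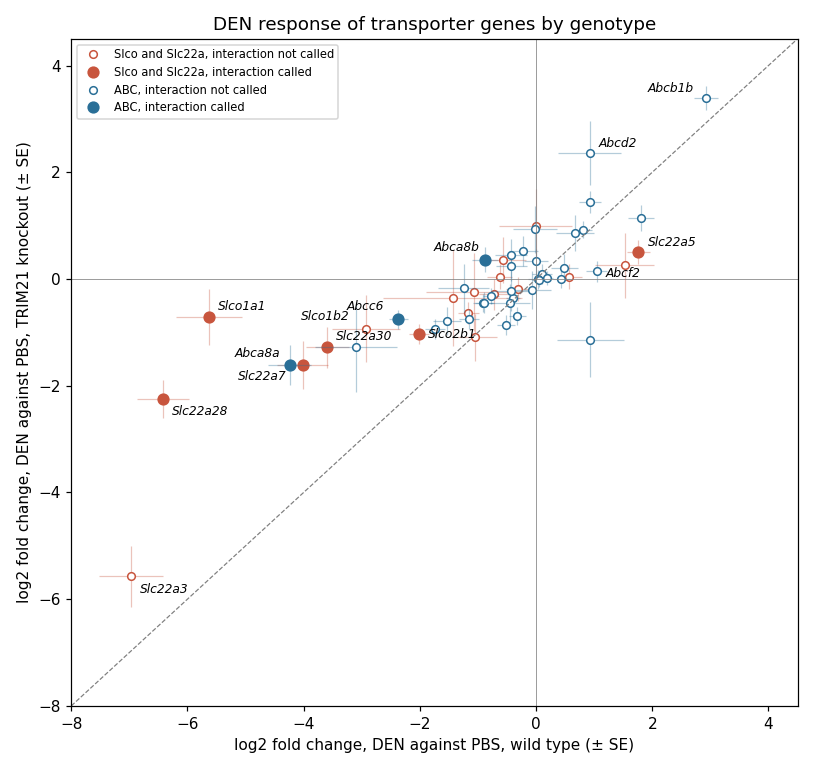
Log2 fold change of DEN against PBS in wild type (x axis) and in knockout (y axis) for 55 tested transporter genes (Abca17, with no PBS count, is not drawn). Lines through points are 1 SE, filled points have a called interaction, and the dashed line marks equal responses. Slco1a1 and Slc22a28 lie farthest above the line, Slc22a3 is at the bottom left, and Abcb1b is at the top right.

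**Figure D5:**
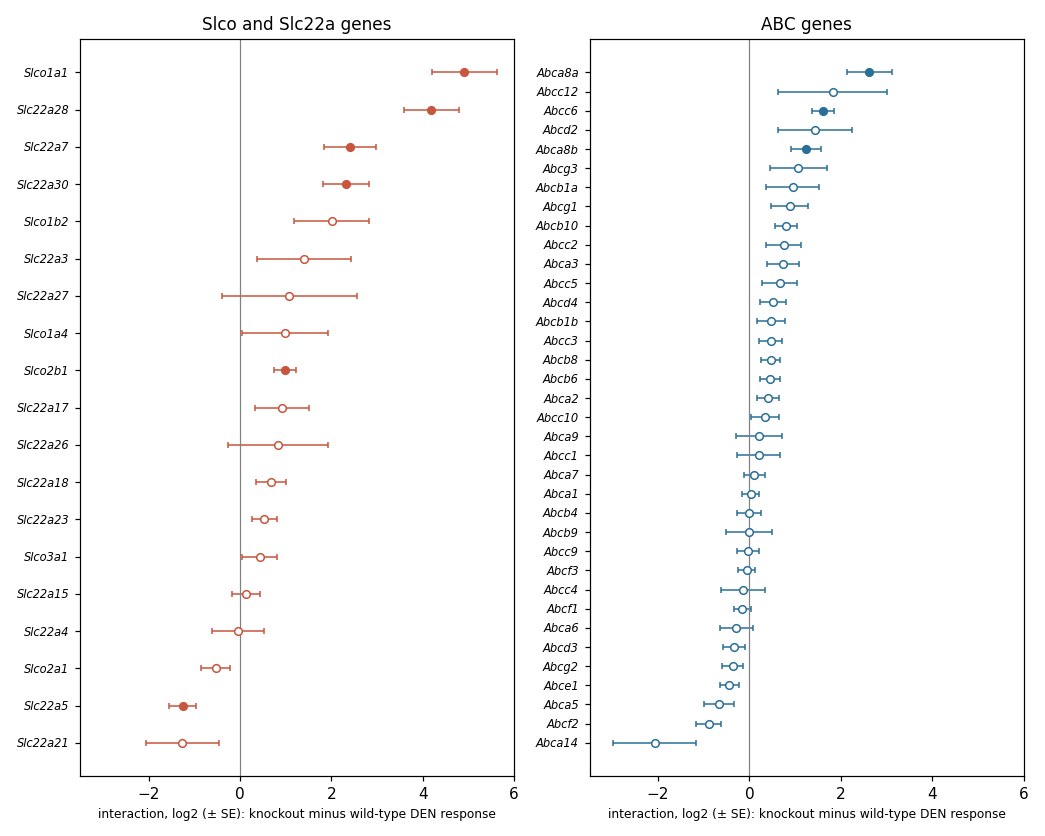
Interaction (knockout minus wild-type DEN response, log2, ± 1 SE) for the same uptake genes (left) and ABC genes (right), in order of size. Filled points are called; they run from -1.26 (Slc22a5) to 4.91 (Slco1a1) on the left and from 1.24 (Abca8b) to 2.63 (Abca8a) on the right.

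Without DEN, none of the 59 tested genes was called between the genotypes by edgeR, DESeq2 or limma-voom. Over all genes 1 was called in this comparison (0.00754%), and at an unadjusted p under 0.05 there were 508 genes (3.83%), of which 1 was a transporter, Abcb1a (-0.88 ± 0.40, knockout minus wild type). The medians were 0.03 for the uptake genes and 0.00 for the ABC genes. Slco1a1 read -0.31 ± 0.46 and Abcc6 -0.10 ± 0.16.

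Levels of different genes can be compared per length of exon. Per kilobase, PBS wild-type liver held 385 ± 59.7 CPM of Slco1b2 (SD, n = 3), 162 ± 19.1 of Slco1a1 and 112 ± 4.52 of Slc22a18, in steps wider than the SDs. In DEN wild type Slc22a18 (72.8 ± 25.1) and Slco1b2 (50.3 ± 34.5) overlapped in their SDs. In DEN knockout Slco1b2 (216 ± 18.5) was followed by Slc22a18 (117 ± 21.3) and Slco1a1 (80.05 ± 13.01), again in steps wider than the SDs. Among ABC genes Abcd3 (248 ± 20.2) and Abcb4 (73.3 ± 17.3) led in PBS wild type, followed by Abcc3, Abcc6 and Abcc2 at 47.3 to 66.0. Abcd3 and Abcb4 led in DEN wild type (172 ± 8.69 and 78.8 ± 2.63) and in DEN knockout (132 ± 14.04 and 71.5 ± 3.69) too.

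The 29 untested genes had at most 14 counts in any library, and 10 of them had none in all 12 libraries, among them Slc22a6, the kidney anion transporter OAT1. Slc22a2 (OCT2) and Slc22a8 (OAT3), also known from kidney, had 12 and 3 counts in all. The highest totals over the 12 libraries were 70 for Slco4a1, 61 for Slc22a13b and 49 for Abca4.

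The library labelled heterozygote, given here as values with no test, had the lowest uptake sum of all, 523 CPM. Slco1b2 read 7.48 CPM there, Slc22a30 1.33 CPM and Slco1a1 4.79 CPM. Of 20 tested uptake genes it was below all 3 DEN wild-type libraries for 6, within their range for 10 and above it for 4. It was below both DEN knockout libraries for 14. Of 39 ABC genes it was below the DEN wild-type range for 22, within it for 10 and above it for 7, and below both DEN knockout libraries for 26. Such counts were not made over all genes, so they are not a result about transporters. The CPM of this library came from a separate TMM run over all 12 libraries. Abcc6 at 11.2 CPM and Abcb1b at 9.93 CPM were both below every other DEN liver. Its Trim21 count was near the knockouts, while most of its uptake genes lay within or below the DEN wild-type range.

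Other liver transporters, chosen by role with earlier results of these data known, were read with the same fit. Of 21 tested, 13 were called lower and 3 higher in wild type (median -1.24), 7 lower and 1 higher in knockout (median -0.53), and 4 had a positive interaction. Over all genes the shares were 26.7% lower and 29.2% higher in wild type, 10.7% and 12.0% in knockout, and 4.07% with a positive interaction. The largest changes were in Slc13a3, a dicarboxylate carrier (-5.75 in wild type, -3.40 in knockout), Slc16a10, an aromatic amino acid carrier (-2.71 and -1.11), Slc17a2 (-2.31 and -1.0), Slc17a4 (-2.14 and -1.15; not called in knockout) and Slc47a1, the cation extruder MATE1 (-2.14 and -1.20). Slc29a1 (ENT1), a nucleoside carrier, read -1.61 in wild type (adjusted p = 2.7e-05) and -0.53 in knockout (adjusted p = 0.11), with a called interaction (1.08, adjusted p = 0.048).

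Scaffold and regulator genes of these transporters were read in the same way, beside shares of all genes of 26.7% lower and 29.2% higher in wild type and 10.7% and 12.0% in knockout. Of 9 genes for membrane scaffolds, trafficking and the bile salt pump Abcb11, 6 were called lower and 3 higher in wild type, and 3 lower and 2 higher in knockout. Abcb11 read -3.62 in wild type (adjusted p = 0.00042) and -1.19 in knockout (adjusted p = 0.17). Pdzk1, which anchors OATPs at the membrane, changed by -1.91 in wild type (adjusted p = 5e-06) and -0.74 in knockout (adjusted p = 0.024), with a called interaction (1.16, adjusted p = 0.032), while Ezr, a linker of membrane to actin, rose in both (1.02 and 1.14). Of 19 regulators, 11 were called lower and 3 higher in wild type, and 4 lower and 1 higher in knockout. Nr0b2 (SHP) read -3.84 in wild type (adjusted p = 0.0032) and -2.44 in knockout (adjusted p = 0.063), Cebpa fell in both (-1.45 and -0.94), and Ppara fell in wild type (-1.19; -0.66 in knockout, not called). Nr1h4 (FXR) fell in wild type (-0.79) but read 0.01 in knockout, and Nfe2l2 (NRF2) rose in knockout (1.13) and read 0.31 in wild type. The interactions of these last 2 were called (0.80, adjusted p = 0.034, and 0.82, adjusted p = 0.045).

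Markers of other cells bear on genes that such cells share. The 9 tested monocyte and neutrophil markers had 8 called higher in wild type and 5 in knockout, beside 29.2% and 12.0% of all genes. Their list summed to 4.43 to 11.8 CPM in PBS livers and 35.9 to 95.1 CPM in DEN livers of the fit. Macrophage markers summed to 190 to 329 CPM in DEN wild type and 405 to 462 CPM in DEN knockout, beside 224 to 517 CPM in the PBS groups. Of 11 tested, 6 were called lower and 2 higher in wild type, and 0 lower and 2 higher in knockout. None had a called interaction. Of 8 tested lymphocyte markers, 6 were called lower in wild type, and 1 lower and 1 higher in knockout. Their list summed to at most 10.4 CPM. Over all genes 26.7% were called lower in wild type and 10.7% in knockout. Cholangiocytes also carry P-glycoprotein. Of 9 tested cholangiocyte markers, 2 were called higher in wild type and 2 in knockout, beside 29.2% and 12.0% of all genes, and none lower. The cholangiocyte list summed to 99.5 to 156 CPM in DEN livers of the fit and 83.3 to 173 CPM in PBS livers. Endothelial markers, whose cells carry Slco2a1, summed to 121 to 165 CPM and 78.7 to 178 CPM. Of the 7 erythroid markers, 4 globin genes had no count in any library. The list summed to 182 to 187 CPM in PBS wild type and 16.1 to 28.2 CPM in DEN wild type. It summed to 152 to 205 CPM in PBS knockout and 62.1 to 86.2 CPM in DEN knockout. Its 1 tested gene was called lower in wild type (-2.96) and in knockout (-1.28), with a called interaction (1.68). What part these cells had in the transporter values was not tested.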

How the data were processed

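The authors deposited 1 table of read counts per gene for each of 12 liver libraries. Per the submitters' processing notes, bcl2fastq, TopHat2, HTSeq and mouse build mm9 were used; their versions, the annotation and the strand setting were not given in the sources used here. Each table ends in 5 tally lines for unassigned reads, which held 61.4% to 78.7% of what was counted and were left out, so near-identical genes can lose reads. That share was 71.6% to 78.7% in PBS wild type and 77.9% to 78.7% in PBS knockout. It was 63.0% to 64.9% in DEN wild type and 61.4% to 64.9% in DEN knockout. What this difference between treatments did to the values was not tested. The genes and gene lists were chosen with earlier results of these data known. The count tables of 11 libraries in 4 groups were fitted together in edgeR 4.0.16 (R 4.3.3) with TMM scaling, filterByExpr by group, robust quasi-likelihood tests and Benjamini-Hochberg adjustment over 13255 genes, with no pairing. The SE is the fold change over the root of the F statistic. Alternatives were edgeR with other scaling, filters and sample sets, DESeq2 1.42.0, limma-voom 3.58.1 and leaving out each library. The code was tested on simulated data. The results of 3 genes are not reported here by name, but stay in all counts and sums. Named genes were 2 lists of drug transporters, the 10 largest called changes per direction, and at most 8 examples per other list. Exon lengths, neighbours, overlaps and coding identities came from GENCODE M21, and promoters from RefSeq, both on GRCm38 and not the build of the counts.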

Additional observations from a re-analysis of the deposited data

Results flagged for a closer look

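The DEN response differed between knockout and wild type, by the interaction test in edgeR, for 10 transporter genes. Among them, on the log2 scale, the difference was 4.91 for Slco1a1, 4.18 for Slc22a28, 2.40 for Slc22a7, 2.32 for Slc22a30 and 0.98 for Slco2b1 among uptake genes that fell in wild type, and -1.26 for Slc22a5, which rose in wild type. Among ABC genes it was 2.63 for Abca8a, 1.61 for Abcc6 and 1.24 for Abca8b. Of these 10, only Slc22a28 was called in each of the 11 fits that left out 1 library, and all the others lost the call without library DENKO_141.

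The library labelled heterozygote, which entered no comparison, lay above all 6 PBS libraries for 14 of the 59 tested transporter genes. These were Slc22a5, Slc22a21, Slco2a1, Abca1, Abca5, Abca6, Abca7, Abca17, Abcb1a, Abcb1b, Abcc1, Abcd4, Abce1 and Abcf2. The share of all genes in which this library lay above the 6 PBS libraries was not counted. Abca1 read 211 CPM there and at most 137 CPM in the other DEN livers. Abcb1a read 5.03 CPM there and at most 3.60 CPM in the other DEN livers.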

How the results depend on the processing

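No paired analysis was possible because no number in the library titles occurs in more than 1 group. With library totals in place of TMM, wild type had 15 ABC genes called higher and 8 lower, knockout had 13 higher, 3 lower and 1 uptake gene higher, and 5 ABC genes were higher in knockout under DEN. Under that scaling Abca1 turned to 0.0882 in wild type. With only the groups compared, 3 uptake genes were lower in knockout under DEN. DESeq2 called 1 ABC gene lower in the interaction. Over the 11 fits that left out 1 library, the uptake genes called ranged from 1 to 3 higher in wild type, 4 to 9 lower in knockout, 3 to 9 higher and 0 to 2 lower in knockout under DEN, and 1 to 6 higher and 0 to 1 lower in the interaction. The ABC genes called ranged from 0 to 10 lower in knockout, 2 to 8 higher and 0 to 2 lower in knockout under DEN, and 0 to 4 higher and 0 to 1 lower in the interaction. The cause of these shifts was not tested, beyond the smaller samples. Of named calls, 29 of 37 in wild type, 8 of 19 in knockout, 5 of 18 under DEN and 1 of 10 interactions were kept in each of the 11 fits. The DEN knockout group of 2 libraries limits the last 3, and when 1 was left out the other was taken to vary like the other groups. In at least 1 of the other settings, 10 named calls were lost in wild type, 6 in knockout, 4 under DEN and 1 in the interaction. Genes with few counts, such as Slc22a3, Slc22a28, Abca17 and Abcc12, are limited by depth.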
